A study of Homo sapiens with 12 samples.

Results

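The genes described here are 55 human genes whose products enter, run and close mitosis: the cyclin B kinase and its activators, the mitotic kinases, the spindle checkpoint, the kinetochore, the kinesin motors, the spindle proteins and the machinery of anaphase and cytokinesis. They were taken as a fixed list of gene symbols, and all 55 were found among the 56638 gene rows of the count table and among the 16080 genes that had enough counts to be tested. RNA was sequenced from 501Mel, an established human melanoma cell line, in 12 libraries. Cells were kept for 48 h with DMSO (vehicle), with 1 μM Vemurafenib (Vem, an inhibitor of the BRAF kinase), with 5 μM Resveratrol (RSV, a plant polyphenol), with 10 nM TCDD (a dioxin that activates the Aryl hydrocarbon Receptor, AhR), with RSV and Vem together, or with RSV and TCDD together, in 2 libraries per treatment. RSV+Vem held both agents at the single doses. For RSV+TCDD the sources differ: the source label of these libraries gives 1 nM TCDD, whereas the treatment protocol gives 10 nM. All groups share the same cell line and no group carries a genetic change made for the study, so each result concerns 1 cell line. The labels do not say whether the 2 libraries of a group came from separate cultures, so p-values measure the spread between libraries, which may be technical.

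Mitotic genes are switched on late in the cell cycle, in G2 and M phase. In resting cells the DREAM complex holds them off, and in dividing cells the MuvB core joins MYBL2 and FOXM1 to activate them, through short promoter sequences called the CHR (cell cycle genes homology region), often beside CCAAT boxes bound by NF-Y. In melanoma cells driven by BRAF, the MAPK pathway keeps the cell cycle running. The level of these RNAs in bulk depends in part on the share of cells in G2 and M phase. In bulk RNA, fewer cells with a transcript and less of it per cell cannot be told apart.

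Counts on genes ranged from 8378655 to 25076925 per library, the RNA integrity number was between 8.6 and 9.7, and ERCC spike-ins (control RNAs added to the sample) held between 0.031% and 0.0936% of all counts. The melanocyte markers PMEL, MLANA, TYR, DCT, SOX10 and MITF had at least 4546 counts in every library, and the markers of keratinocytes (KRT5, KRT14), leukocytes (PTPRC, CD3E) and endothelium (PECAM1) had at most 4. Levels are given as CPM, counts scaled to library size with edgeR's TMM factors, and a gene was called at an edgeR adjusted p below 0.05. The libraries differed in their share of spike-ins. Scaling to them moved the median log2 fold change of all tested genes by more than 0.1 in 8 of the 9 comparisons. These medians then lay between -1.02 and 0.15, so changes of the mitotic genes are also given relative to that median. Spike-in scaling multiplies each library by 1 factor, so such relative values can hardly differ between the scalings and are no separate support. For Vem over vehicle they were -1.803 with spike-ins and -1.801 with TMM factors.

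The promoters of these genes carry the letters of the CHR far more often than promoters at large. RefSeq promoter windows on GRCh38.p14, from 250 bases before to 50 bases after a start site, were found for 47 of the 55 genes, and the first listed window was used for the 7 genes with several. The letters TTTGAA or TTCGAA, on either strand, stood in 34 of 47 windows (72.3%), against 13.5% of 15843 protein coding promoters and 7.41% of 27 windows of DNA replication genes. CCAAT, on either strand, stood in 74.5% of the mitotic windows and 36.4% of the coding promoters, and 46.8% against 12.5% held it 2 or more times, where CCAATTGG counts as 2 overlapping matches. The E2F letters TTCCCGC or TTGGCGC showed the other order, with 21.3% of mitotic windows, 70.4% of replication windows and 12.3% of coding promoters. A match is a description of letters and not a measured binding site, and no comparison of these shares was tested.

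The 120 bases before the start site are shown for 8 genes to which the results return, in the direction of transcription, with CHR, CCAAT and E2F letters in capitals. In PLK1, CCNB2, KIF11, HMMR and KIF18A a CHR lies close to the start site with a CCAAT box upstream of it. CDC20 has its CHR between CCAAT boxes, and KIF18A has TTGGCGCCAA (overlapping E2F matches on both strands). CENPE and MYBL2 have none of these letters in the stretch shown. Only these exact letters were searched, so other forms of the motifs are not marked.

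PLK1 (chr16:23678769-23678888, plus strand): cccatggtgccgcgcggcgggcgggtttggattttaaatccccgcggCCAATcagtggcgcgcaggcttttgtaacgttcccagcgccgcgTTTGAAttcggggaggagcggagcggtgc

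CCNB2 (chr15:59105026-59105145, plus strand): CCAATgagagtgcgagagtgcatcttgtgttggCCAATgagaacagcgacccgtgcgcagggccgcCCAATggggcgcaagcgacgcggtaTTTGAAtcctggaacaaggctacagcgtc

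CDC20 (chr1:43358861-43358980, plus strand): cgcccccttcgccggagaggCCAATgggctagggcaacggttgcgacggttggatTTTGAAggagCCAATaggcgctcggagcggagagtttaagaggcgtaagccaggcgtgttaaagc

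KIF11 (chr10:92593010-92593129, plus strand): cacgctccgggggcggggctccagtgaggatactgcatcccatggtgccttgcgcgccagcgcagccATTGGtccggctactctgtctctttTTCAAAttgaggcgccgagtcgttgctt

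HMMR (chr5:163460512-163460631, plus strand): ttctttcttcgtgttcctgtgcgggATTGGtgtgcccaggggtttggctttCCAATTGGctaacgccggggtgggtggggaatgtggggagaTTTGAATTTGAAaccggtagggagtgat

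KIF18A (chr11:28108157-28108276, minus strand): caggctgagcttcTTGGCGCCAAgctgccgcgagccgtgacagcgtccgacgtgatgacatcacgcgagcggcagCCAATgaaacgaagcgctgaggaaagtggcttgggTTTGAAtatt

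CENPE (chr4:103198344-103198463, minus strand): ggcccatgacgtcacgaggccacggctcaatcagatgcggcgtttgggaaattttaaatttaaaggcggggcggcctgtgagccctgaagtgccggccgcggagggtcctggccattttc

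MYBL2 (chr20:43666994-43667113, plus strand): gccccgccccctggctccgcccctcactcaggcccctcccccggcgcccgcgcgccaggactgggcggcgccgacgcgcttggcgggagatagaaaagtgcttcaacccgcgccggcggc

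**Figure D1:**
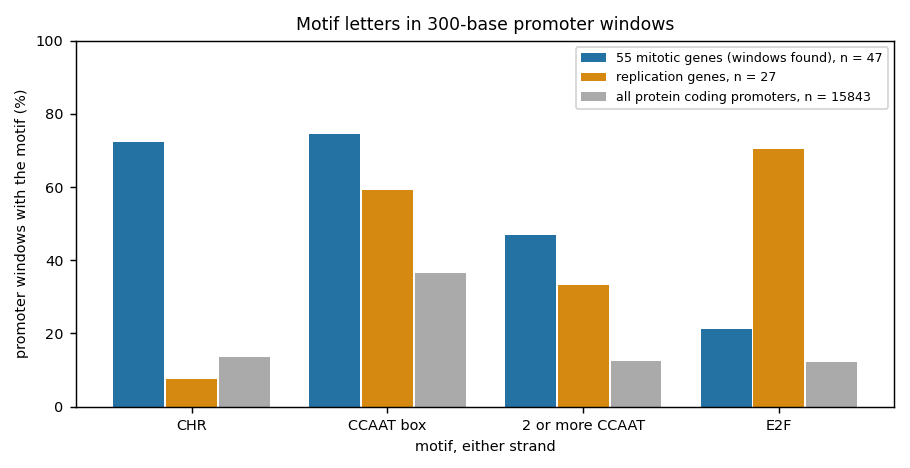
Share of 300-base promoter windows (y axis, %) that hold the letters of each motif on either strand (x axis), for 47 mitotic genes, 27 replication genes and 15843 protein coding promoters. CHR letters stand in 72.3% of mitotic windows and 7.41% of replication windows, and E2F letters in 21.3% and 70.4%.

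The sum of the 55 genes gives the overall order of the treatments on the CPM scale. It was 7029 and 7550 CPM in the vehicle libraries and 7142 and 7202 in those of TCDD. RSV gave sums of 5220 and 5728 CPM, RSV+TCDD of 4706 and 4881, RSV+Vem of 3971 and 4592, and Vem of 2156 and 2193. The Vem libraries lay below all others, at 29.83% of the vehicle mean, and RSV+Vem lay at 58.74%, RSV+TCDD at 65.76%, RSV at 75.09% and TCDD at 98.39%. The TCDD libraries lay within the range of the vehicle libraries, and no library of any group with RSV overlapped a library of vehicle or Vem. After spike-in scaling the sums were 10640 and 11540 with vehicle, 8145 and 7185 with TCDD, and 7756 and 6981 with RSV. They were 5234 and 2592 with RSV+Vem, 3762 and 2598 with RSV+TCDD, and 2113 and 2096 with Vem. On that scale TCDD lay below vehicle and overlapped RSV. RSV+TCDD lay within the range of RSV+Vem, and Vem stayed lowest. Gene by gene on the CPM scale, Vem had the lowest mean of the 6 groups for 51 of the 55 genes and RSV+TCDD for the other 4. The highest mean was in vehicle for 26 genes, in TCDD for 22, in RSV for 4 and in RSV+TCDD for 3. Per kb of exon, the levels in vehicle had a median of 29 CPM per kb, from 3.99 for CENPI to 89.9 for TPX2, and in Vem a median of 8.17, with TPX2 still the highest at 31.2.

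**Figure D2:**
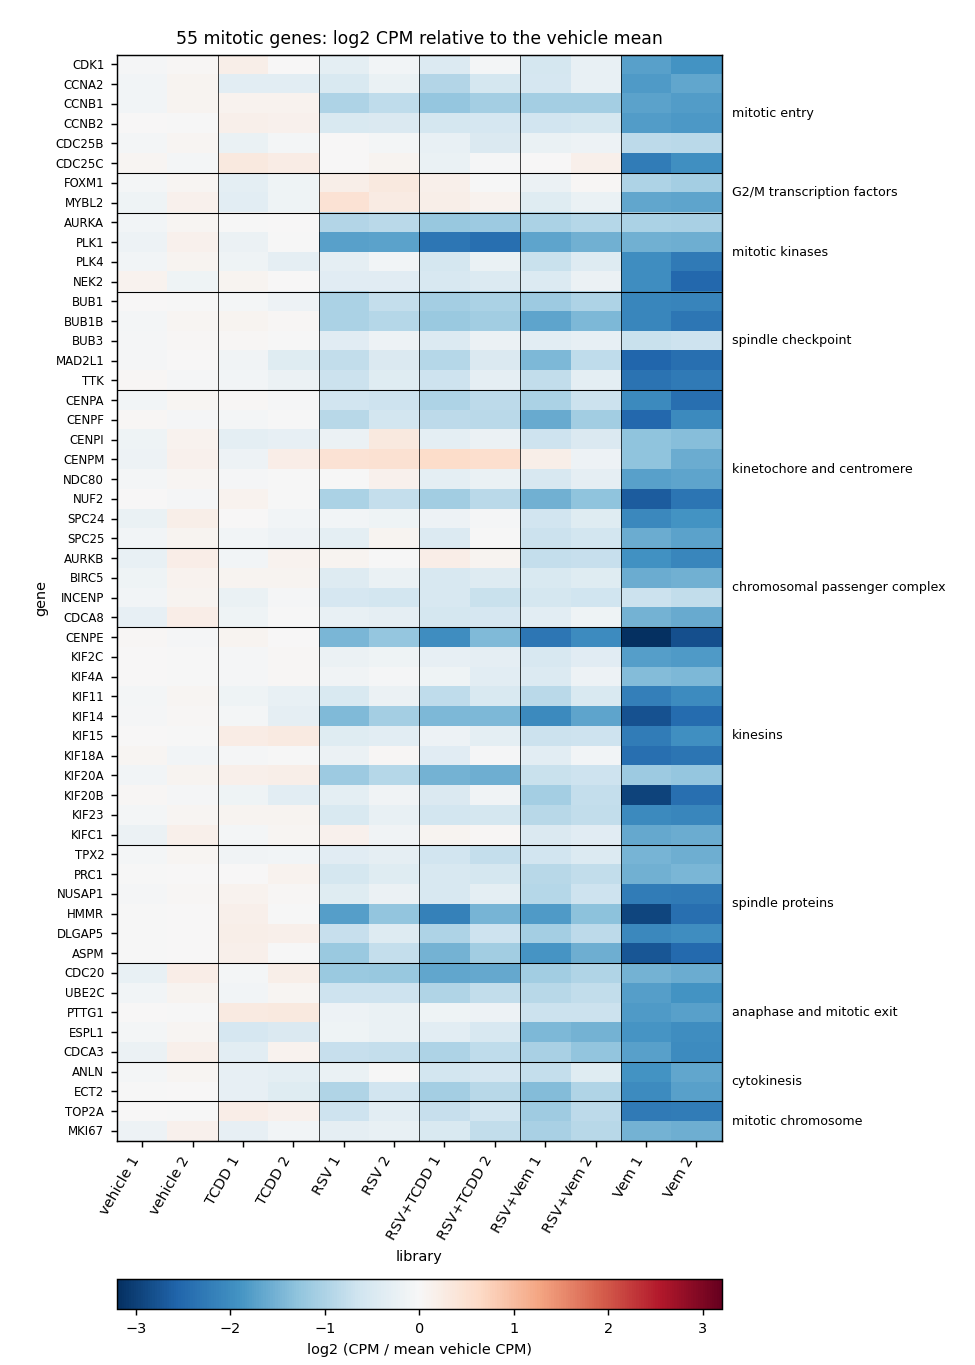
Level of each of the 55 genes (rows, grouped by role) in each of the 12 libraries (columns), as log2 of its CPM over the mean vehicle CPM, with blue for lower and red for higher. Both Vem libraries are blue in every row, the libraries with RSV are paler with dark rows such as PLK1 and CENPE, and the TCDD libraries stay near white.

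Whether Vem lowered these genes was asked by comparing it with vehicle. All 55 genes were called lower with Vem, in a table where 25.5% of tested genes were called higher and 26.9% lower. For all 55 both Vem libraries lay below both vehicle libraries, a separation that was not counted over all tested genes. The median log2 fold change was -1.83, which is 28.1% of the vehicle level, while that of all tested genes was -0.03. With spike-in scaling it was -2.48, which is 1.80 below the median of all genes, and again 55 were called lower. In that fit 3620 of 16080 tested genes were called lower and 195 higher. With each library left out in turn, 55 genes stayed lower in each of the 12 fits.

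The kinesins, motors that move chromosomes and slide microtubules, held the largest fall. CENPE, the kinetochore motor that carries chromosomes to the spindle equator (GRCh37 chr4:104026506-104119602, minus strand), had 105.8 and 99.93 CPM in the vehicle libraries and 10.36 and 14.75 with Vem. It was 8.215-fold lower (log2 fold change -3.04, standard error 0.20, edgeR adjusted p = 1.1e-08). All 11 kinesins fell, with a median of -2.09. KIF18A, which dampens chromosome movements at the plate, fell from 45.85 and 41.27 to 8.137 and 8.684 CPM, and KIF11, the motor that pushes the spindle poles apart, from 158.6 and 170.9 to 36.09 and 40.58 CPM. KIF20B, which acts in cytokinesis, fell by 2.68 on the log2 scale, the second largest fall of the 55. The smallest fall among the kinesins was that of KIF20A, a motor of the central spindle, from 104.9 and 119.9 to 50.35 and 47.49 CPM, a log2 fold change of -1.20.

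Spindle proteins fell by a median of 2.14 on the log2 scale, 6 of 6 genes. HMMR, a microtubule-binding protein of the spindle poles, had 108.5 and 111.3 CPM with vehicle and 14.4 and 20.52 with Vem, a log2 fold change of -2.66 (standard error 0.27, edgeR adjusted p = 2.25e-05). TPX2, which activates AURKA on the spindle, had a log2 fold change of -1.53 and PRC1, which bundles the central spindle, one of -1.503. All 5 checkpoint genes fell, with log2 fold changes of -2.48 for MAD2L1, -2.31 for TTK, -2.20 for BUB1B and -2.11 for BUB1. These proteins hold back anaphase until every kinetochore is attached. BUB3, their partner, had the smallest fall of all 55, from 159.1 and 170.2 to 99.66 and 104 CPM (log2 fold change -0.69, standard error 0.10, edgeR adjusted p = 1.19e-05).

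The kinetochore genes, whose products tie chromosomes to microtubules, fell by a median of 1.85 on the log2 scale, 8 of 8 genes. NUF2 fell by 2.50 and NDC80 by 1.72, and both are subunits of the NDC80 complex that grips the microtubule. CENPF fell by 2.26, and CENPA, the histone H3 variant that marks the centromere, fell from 29.3 and 32.53 to 7.511 and 5.764 CPM. In the chromosomal passenger complex, which corrects wrong attachments, the kinase AURKB fell by 2.01, CDCA8 by 1.57 and BIRC5 (survivin) by 1.57, while the scaffold INCENP fell by 0.73 on the log2 scale. Across the 11 roles the median log2 fold changes with Vem ran from -2.20 (checkpoint) to -1.36 (transcription factors).

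Mitotic entry genes fell in 6 of 6 cases. CDK1, the kinase that starts mitosis, fell from 217.3 and 226.5 to 66.34 and 59.02 CPM (log2 fold change -1.82, standard error 0.14, edgeR adjusted p = 1.79e-08). Its cyclin CCNB1 fell by 1.76 and CCNA2 by 1.73. The activating phosphatase CDC25C fell by 2.10 and its relative CDC25B by 0.85 on the log2 scale. Of the transcription factors, MYBL2 fell by 1.68 and FOXM1 by 1.04. Among the kinases, NEK2 fell by 2.22, PLK4 (centriole duplication) by 2.11, PLK1 by 1.55 and AURKA by 1.03 on the log2 scale. The anaphase genes lay in a narrow range: CDC20, which activates the anaphase promoting complex, fell by 1.54, UBE2C, its ubiquitin conjugating enzyme, by 1.83, PTTG1 (securin) by 1.77 and ESPL1 (separase) by 1.93. ANLN and ECT2, which build the cleavage furrow, fell by 1.77 and 1.87, and the chromosome proteins TOP2A and MKI67 fell by 2.25 and 1.54 on the log2 scale.

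**Figure D3:**
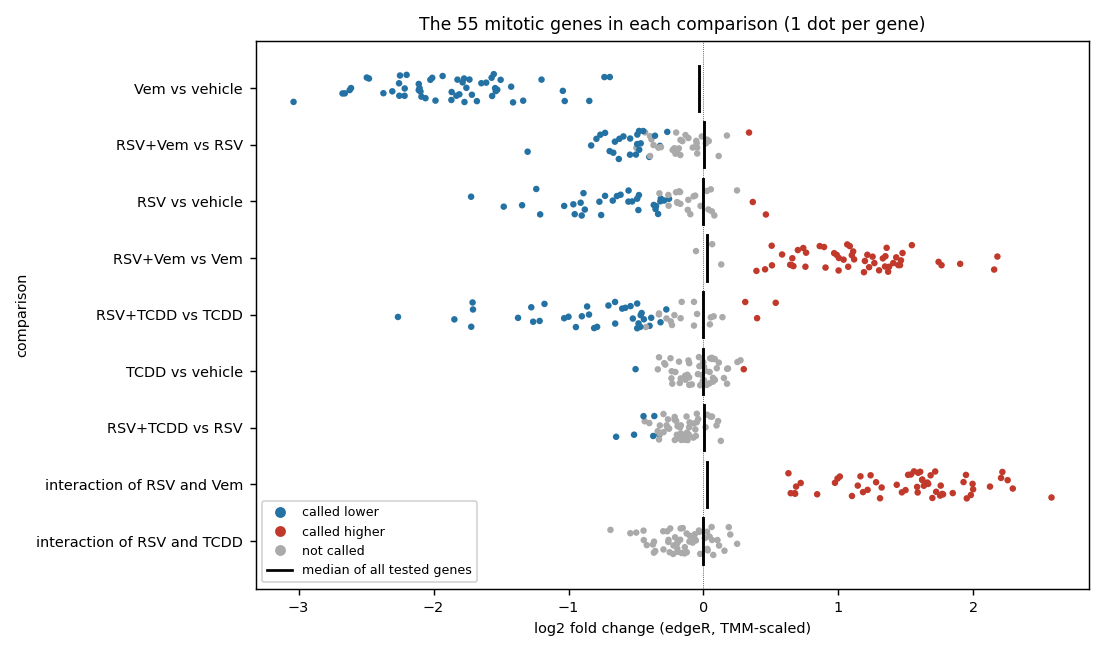
Log2 fold change (x axis, edgeR on TMM-scaled counts) of each of the 55 genes (dots) in each of the 9 comparisons (y axis). Dots are blue where called lower, red where called higher and grey where not called, and the black bar is the median of the 16080 tested genes. All 55 dots are blue for Vem vs vehicle and red for the interaction of RSV and Vem, and 53 are grey for TCDD vs vehicle.

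RSV alone lowered 32 of the 55 genes and raised 2, and 21 did not pass the test, where 20.2% of all tested genes were called lower and 20.5% higher. The median log2 fold change was -0.34, or 79.2% of the vehicle level, against 0.00 over all tested genes (-0.002 before rounding). DESeq2 called 29 lower and 2 higher, where it called 2843 of 16080 tested genes lower and 2829 higher. On the spike-in scale the median was -0.52, 0.35 below that of all genes, and edgeR called 3 genes lower, PLK1, HMMR and CENPE. In that fit 113 of 16080 tested genes were called lower and 256 higher. Without RSV replicate 1 the count of lower genes was 21.

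PLK1, the kinase that drives centrosome maturation and mitotic entry (GRCh37 chr16:23688977-23701688, plus strand), had the largest fall with RSV. It had 125 and 154.2 CPM with vehicle and 42.08 and 42.6 with RSV, 3.298-fold lower (log2 fold change -1.72, standard error 0.11, edgeR adjusted p = 7.81e-09). HMMR fell by 1.48, CENPE by 1.34, KIF14 by 1.24, CDC20 by 1.21 and KIF20A by 1.03 on the log2 scale. AURKA fell from 123.3 and 137.2 to 67.46 and 71.23 CPM and CCNB1 from 142.9 and 162 to 76.62 and 86.52 CPM. In each of these genes both RSV libraries lay below both vehicle libraries. They did so for 41 of the 55 genes and lay above for 3, counts that were not taken over all tested genes.

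The roles differed in how many members fell with RSV. All 6 spindle proteins and all 5 checkpoint genes were called lower, with medians of -0.52 and -0.61. Among the kinetochore and centromere genes 3 of 8 fell (NUF2, CENPF and CENPA), among the kinesins 5 of 11, and among the entry genes 3 of 6 (CCNB1, CCNB2 and CCNA2). CDK1 was not called, with 178.6 and 209.8 CPM against 217.3 and 226.5, and neither were CDC25B, CDC25C, KIF11, KIF18A, NDC80, PLK4, AURKB, PTTG1, ESPL1, ANLN, FOXM1 or MKI67. The 2 genes that rose were MYBL2, an activator of this gene class, from 184.9 and 221.9 to 278.5 and 245.9 CPM (log2 fold change 0.37, standard error 0.11, edgeR adjusted p = 0.0107), and CENPM, a kinetochore subunit, from 18.27 and 22.74 to 28.03 and 28.63 CPM (log2 fold change 0.46, standard error 0.15, edgeR adjusted p = 0.0209). On the spike-in scale these values were 0.21 and 0.29 and neither was called. Neither rise was called without vehicle replicate 1 or without RSV replicate 1, and without RSV replicate 2 only 1 gene was called higher.

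With TCDD present, RSV gave a similar set of changes in libraries that share none with the comparison of RSV and vehicle. If the 1 nM of the source label holds, RSV+TCDD and TCDD also differ in TCDD dose, which cannot be told apart from RSV. RSV+TCDD was lower than TCDD in 36 genes and higher in 3, where 19.1% of all tested genes were called lower and 18.6% higher. The median log2 fold change was -0.48, and -1.16 under spike-in scaling, 0.47 below that of all genes. In the spike-in fit 27 of the 55 were called lower and 0 higher, where 1752 of 16080 tested genes were lower and 160 higher. Both comparisons called 30 genes lower, which is 93.8% of the 32 with RSV alone and 83.3% of the 36 with TCDD. Across the 55 genes the 2 sets of log2 fold changes had a Pearson r of 0.95, a description over genes that share libraries. Neither the overlap nor r was computed over all tested genes, so whether they are particular to the mitotic genes was not tested. PLK1 again had the largest fall, from 122 and 137.9 CPM with TCDD to 27.98 and 26.1 with RSV+TCDD, 4.803-fold lower (log2 fold change -2.26, standard error 0.12, edgeR adjusted p = 2.52e-09). HMMR fell by 1.85, KIF20A by 1.72, CENPE by 1.71 and CDC20 by 1.71 on the log2 scale.

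The genes called higher with RSV+TCDD than with TCDD were CENPM (log2 fold change 0.54), MYBL2 (0.40) and FOXM1 (0.31), of which CENPM and MYBL2 also rose with RSV alone. Under spike-in scaling all 3 turned to -0.14, -0.27 and -0.35, so their direction rests on the scaling. None of the 3 was called without TCDD replicate 1 or without RSV+TCDD replicate 1. Genes with no call, such as CDK1 (-0.33), PLK4 (-0.17), KIF18A (-0.16), AURKB (0.14) and ESPL1 (0.08), had also not been called with RSV alone, while MAD2L1 (-0.43) and TTK (-0.33), both lower with RSV alone, were not called here.

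With Vem present, RSV went the other way. RSV+Vem was higher than Vem in 52 of the 55 genes and lower in none, where 19.1% of all tested genes were called higher and 18.7% lower. Also in DESeq2, 52 were higher and 0 lower, where 2576 of 16080 tested genes were higher and 2848 lower. At an unadjusted edgeR p below 0.05 the counts of the 55 were the same, where 7475 of 16080 passed in either direction. The median log2 fold change was 1.10, or 214% of the Vem level, against 0.03 over all tested genes. Scaled to the spike-ins, the median was 1.02, 1.03 above that of all genes, but 5 genes were called higher. In that fit 334 of 16080 tested genes were called higher and 55 lower. The 2 RSV+Vem libraries differ in spike-in share, 0.0389% and 0.0903%, and their sums of the 55 genes after spike-in scaling were 5234 and 2592, against 2113 and 2096 in the Vem libraries. Library 2 is also the shallowest of the 12. The RSV+Vem libraries had the lowest RNA integrity numbers, 8.7 and 8.6, against 9.1 to 9.7 in the other libraries, and the part of RNA integrity in the results on RSV+Vem, the interaction included, was not tested.

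CDC25C (GRCh37 chr5:137620958-137674044, minus strand) rose most. It had 4.242 and 5.149 CPM with Vem and 20.11 and 22.6 with RSV+Vem, 4.529-fold higher (log2 fold change 2.18, standard error 0.16, edgeR adjusted p = 1.9e-08), while the vehicle libraries had 20.95 and 19.18. KIF18A rose from 8.137 and 8.684 to 34.27 and 41.16 CPM (log2 fold change 2.16) and NEK2, a centrosome kinase, from 12.31 and 8.607 to 36.34 and 42.73 CPM (1.90). These 3 genes stayed called under spike-in scaling, with KIF20B and TTK. CDK1 rose from 66.34 and 59.02 to 150.5 and 188.1 CPM, a log2 fold change of 1.43.

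Every role had called members, with medians from 0.74 for the anaphase genes to 1.28 for the entry genes. All 11 kinesins, 8 kinetochore genes, 6 spindle proteins, 6 entry genes, 5 checkpoint genes and 5 anaphase genes were higher. MYBL2 rose by 1.38 and FOXM1 by 0.97. CENPA rose by 1.36, NDC80 by 1.30, MAD2L1 by 1.37, BUB1 by 1.04, AURKB by 1.25, TOP2A by 1.27, and CCNB1 by only 0.66. The 3 genes not called were PLK1, with 48.12 and 47.03 CPM in Vem and 43.47 and 48.47 in RSV+Vem (log2 fold change -0.06, standard error 0.12), AURKA (0.07, standard error 0.10) and INCENP (0.13, standard error 0.10). The Vem and RSV+Vem libraries overlapped for PLK1 and AURKA, and all 3 genes were called lower with RSV alone. Another 29 genes were lower with RSV alone and higher with RSV+Vem than with Vem. There were 21 not called with RSV alone and higher here, and CENPM and MYBL2 were higher in both. Such joint calls were not counted over all tested genes.

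**Figure D4:**
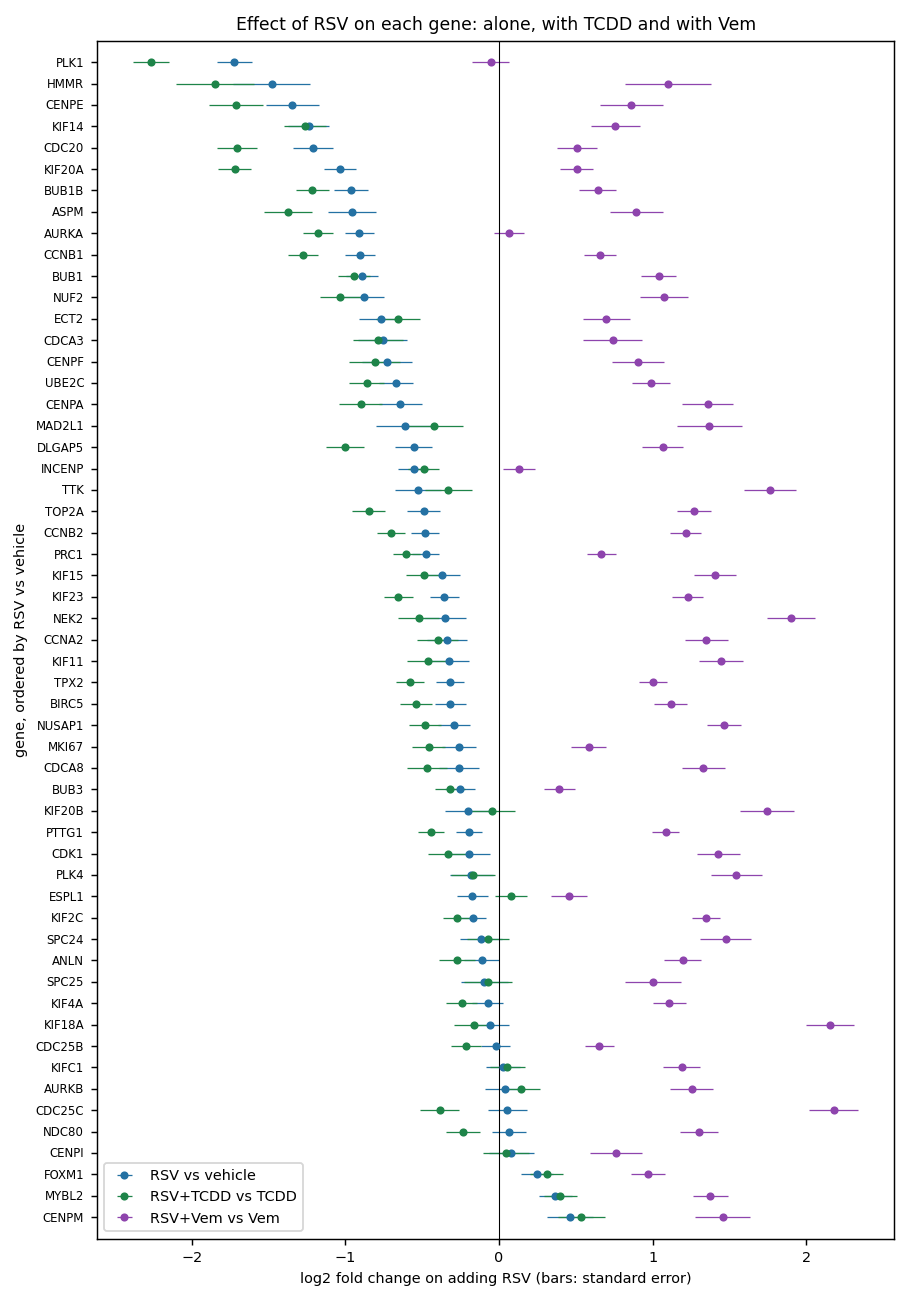
Log2 fold change on adding RSV (x axis, bars are standard errors) for each of the 55 genes (y axis, ordered by RSV vs vehicle): RSV vs vehicle in blue, RSV+TCDD vs TCDD in green and RSV+Vem vs Vem in purple. Blue and green lie mostly left of 0 and follow each other. Purple lies right of both for all 55 genes, down to -0.06 for PLK1. The distance of purple from blue is the interaction of RSV and Vem.

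The same libraries also show what Vem did once RSV was present. RSV+Vem was lower than RSV in 24 genes and higher in 1, where 13.4% of all tested genes were called lower and 11.3% higher. The median log2 fold change was -0.36, against -1.83 for Vem over vehicle, in a pair of comparisons that share no library. For all 55 genes the value with RSV present was the less negative of the pair or above 0. The difference within the pair is the interaction of RSV and Vem given below, so it is not a separate observation. By spike-in scaling the median was -0.89, 0.37 below that of all genes, and 1 gene was called lower. In that fit 461 of 16080 tested genes were called lower and 20 higher. Without RSV+Vem replicate 1 the count of lower genes was 8, and without RSV replicate 2 it was 12.

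ESPL1, the protease that cuts cohesin at anaphase (GRCh37 chr12:53662083-53687422, plus strand), stood apart. It had 68.85 and 64.77 CPM with RSV and 27.77 and 26.2 with RSV+Vem (log2 fold change -1.30, standard error 0.11, edgeR adjusted p = 1.6e-07), and it was the gene still called lower under spike-in scaling. CENPE fell by 0.83, AURKB by 0.79, MKI67 by 0.70, MYBL2 by 0.67 and FOXM1 by 0.32 on the log2 scale. None of the 6 entry genes was called, from -0.20 for CDK1 to 0.03 for CDC25C, and none of the 4 mitotic kinases, from -0.39 for PLK4 to 0.11 for PLK1. At an unadjusted edgeR p below 0.05, 34 of the 55 genes were lower, where 5966 of 16080 tested genes passed in either direction. DESeq2 called 26 lower, where it called 1875 of the 16080 lower. KIF20A was higher, at 50.64 and 59.26 CPM with RSV and 68.16 and 70.96 with RSV+Vem (log2 fold change 0.34, edgeR adjusted p = 0.026), but -0.18 under spike-in scaling, and it was not called without RSV replicate 1 or without either RSV+Vem library.

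Whether RSV acted differently in the presence of Vem was tested as an interaction, the log2 fold change of RSV+Vem over Vem less that of RSV over vehicle. It was above 0 for all 55 genes, and all 55 were called, where 11.8% of tested genes were called above 0 and 10.9% below. The median was 1.59 on the log2 scale, against 0.02 over all tested genes, so the combination stood at 301% of the level given by multiplying the effects of both agents. DESeq2 also called 55 above 0 and 0 below, where it called 1691 of 16080 tested genes above 0 and 1770 below. With spike-in factors the median was 1.70, 1.54 above that of all genes, and all 55 were above 0. Only HMMR was called, where 8 of 16080 tested genes were called above 0 and 0 below.

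The interaction was largest for HMMR (2.58, standard error 0.38, edgeR adjusted p = 0.00116), TTK (2.29) and NEK2 (2.26), and smallest for ESPL1 (0.63, standard error 0.16, edgeR adjusted p = 0.00713), BUB3 (0.65) and CDC25B (0.68). By role the medians ran from 0.87 for the transcription factors to 1.93 for the checkpoint genes. Genes with a large interaction did not all have the same levels. PLK1 (1.67) had about the same CPM in the Vem, RSV and RSV+Vem libraries, between 42.08 and 48.47. CDC25C (2.12) had about the same CPM in RSV+Vem as in RSV, 20.11 and 22.6 against 20.26 and 21.38, and 4.242 and 5.149 in the Vem libraries. CENPE (2.21) lay below vehicle in all 3 groups, with 37.38 and 43.55 CPM in RSV, 20.54 and 25.53 in RSV+Vem and 10.36 and 14.75 in Vem.

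**Figure D5:**
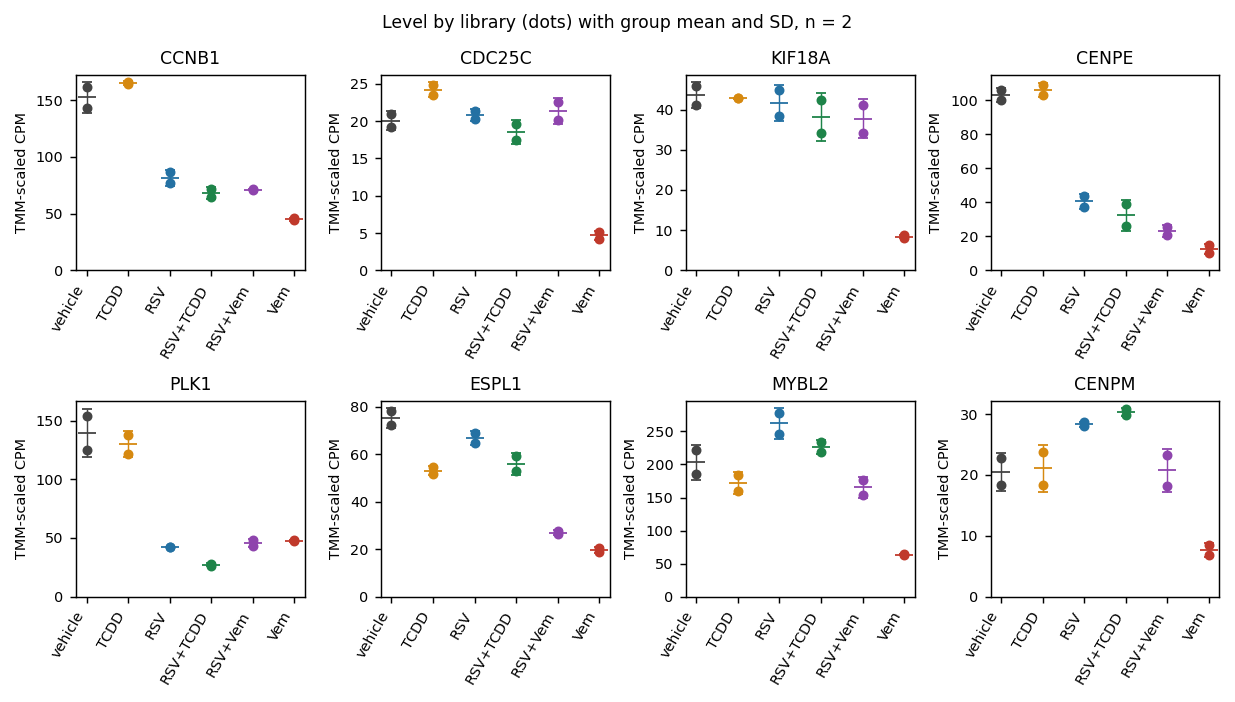
TMM-scaled CPM (y axis, from 0) of 8 genes in the 6 groups (x axis); dots are libraries, and the bars give the mean and SD of 2 libraries. CDC25C and KIF18A are lowest with Vem, PLK1 is low in all groups with RSV or Vem and lowest with RSV+TCDD, ESPL1 is low in both groups with Vem, and MYBL2 and CENPM have their highest means with RSV or RSV+TCDD.

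TCDD alone left these genes near the vehicle level. It called 1 gene lower and 1 higher, where 2.01% of all tested genes were called lower and 4.72% higher. The median log2 fold change was -0.004, and -0.51 under spike-in scaling, the same as that of all genes to within 0.002. ESPL1 fell from 72.32 and 78.28 to 51.81 and 54.55 CPM (log2 fold change -0.50, standard error 0.10, edgeR adjusted p = 0.0061), and PTTG1, the inhibitor of ESPL1, rose from 138.5 and 137.2 to 167.7 and 171.5 CPM (log2 fold change 0.30, standard error 0.08, edgeR adjusted p = 0.0389), a direction that the spike-ins turned to -0.21. The call on ESPL1 was lost without TCDD replicate 1, and that on PTTG1 without any 1 of the vehicle, Vem or TCDD libraries. At an unadjusted edgeR p below 0.05, 6 genes were lower and 3 higher, where 3463 of 16080 tested genes passed in either direction. DESeq2 called 1 lower and 1 higher, where it called 352 of the 16080 lower and 700 higher. PTTG1 has near-identical copies, of which PTTG3P had at most 2 counts.

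Adding TCDD to RSV lowered 6 of the 55 genes and raised none, where 2.28% of all tested genes were called lower and 3.89% higher. The 6 were PLK1, from 42.08 and 42.6 to 27.98 and 26.1 CPM (log2 fold change -0.65, standard error 0.12, edgeR adjusted p = 0.0033), KIF20A (-0.51), ANLN (-0.44), MKI67 (-0.37), TPX2 (-0.36) and CDC25B (-0.33). DESeq2 called 7 lower and 0 higher, where it called 336 of 16080 tested genes lower and 632 higher. At an unadjusted edgeR p below 0.05, 18 were lower and 0 higher, where 3374 of the 16080 passed in either direction. Without RSV replicate 2, 1 gene was called and without RSV+TCDD replicate 2, 2 genes. Spike-in scaling lowered all genes by a median of 1.02 on the log2 scale here. It called 49 of the 55 lower, where 6926 of 16080 tested genes were called lower and 1 higher. The median of the 55 was -1.20, 0.17 below that of all genes. The interaction of RSV and TCDD called no gene of the 55 in either direction, with a median of -0.15, where 0.0124% of tested genes were called above 0 and 0.137% below. At an unadjusted edgeR p below 0.05, 8 were below 0 and 0 above, where 1268 of 16080 tested genes passed in either direction. DESeq2 called 1 below and 0 above, where it called 51 of the 16080 below and 26 above. The lowest value was that of KIF20A (-0.69, standard error 0.15, edgeR adjusted p = 0.0742). As the sources differ on the TCDD dose of RSV+TCDD, this interaction may also hold a difference in dose.

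Other mitotic and replication genes give the setting. With Vem, 28 of 31 other kinetochore and centromere genes, 8 of 8 condensin genes, 8 of 10 cohesin genes and 8 of 10 centriole genes were lower and none higher, with medians of -1.40, -1.60, -0.86 and -1.03. The largest falls were those of CENPH (-2.52), SMC4 (-1.95), CDCA5, the cohesion factor sororin (-1.36), and CENPJ (-2.19). All 30 replication genes were lower too, with a median of -1.50 and MCM10, a factor that opens replication origins, at -2.10. The core of the anaphase promoting complex, which is present through the cell cycle, had 5 of 14 genes lower, ANAPC2 (0.39) and FZR1 (0.38) higher and a median of 0.07, where 26.9% of all tested genes were lower and 25.5% higher. Of the DREAM and MuvB genes 8 of 10 were lower, with LIN9, a MuvB subunit, at -1.81. Under spike-in scaling the condensin and replication counts were 8 and 30 lower, where 3620 of 16080 tested genes were called lower and 195 higher. The anaphase promoting complex had 2 genes lower, none called higher, and a median of -0.59.

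With RSV alone 7 of 30 replication genes were lower and 6 higher, near the 20.2% lower and 20.5% higher of all tested genes, with a median of 0.07 against -0.34 for the 55 genes. Scaled to the spike-ins the replication median was -0.11 with no gene called, so its sign rests on the scaling, and the difference between the lists was not tested. CDT1, which loads the replicative helicase, rose by 0.77 and POLA1, a primase polymerase subunit, fell by 0.93 on the log2 scale. With RSV+TCDD over TCDD, 5 of the 30 were lower and 5 higher, again near the shares of all tested genes (19.1% and 18.6%), with a median of 0.06 that turned to -0.65 with the spike-ins. With Vem present, 27 of 30 replication genes were higher with RSV (median 0.88), CDT1 by 1.99, where 19.1% of all tested genes were higher. Against RSV, 28 of 30 were lower with RSV+Vem (median -0.60), where 13.4% of all tested genes were lower. RRM2, a ribonucleotide reductase subunit, fell by 0.92 on the log2 scale. Scaled to the spike-ins the replication counts were 3 higher and 3 lower, with medians of 0.83 and -1.13. In those fits 334 of 16080 tested genes were higher than with Vem and 461 lower than with RSV. Of the other kinetochore genes 26 of 31 were higher with RSV+Vem than with Vem, CENPU by 2.11, but 5 with the spike-ins. With RSV alone 6 of the 31 were lower and 7 higher, near the shares of all tested genes. In the cohesin list STAG1 fell by 1.64 and CDCA5 rose by 0.76 with RSV alone.

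The genes can also be described by the letters in their promoter windows, for the 47 that have one. With Vem, the 34 genes with CHR letters in their window had a median log2 fold change of -2.04, from -2.68 to -0.73, and the 13 without had -1.77, from -3.04 (CENPE) to -0.85. With RSV alone the medians were -0.48, with 21 of 34 lower and none higher, and -0.17, with 5 of 13 lower and 1 higher (MYBL2). For RSV+Vem over Vem they were 1.11 and 1.25. The 8 genes with no window had a median of -1.48 with Vem, of -0.32 with RSV alone, with 6 lower and 1 higher (CENPM), and of 1.00 for RSV+Vem over Vem. The ranges of both sets overlapped in each comparison and the difference between them was not tested. PLK1, HMMR and CDC20, with CHR letters in the stretches shown, and CENPE, without them, were among the 5 largest falls with RSV alone.

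Counting limits touch some of these genes. The count table was made per gene symbol and the library kit keeps strand. In the GENCODE annotation on GRCh37, PRC1 shares 57.6% and NUSAP1 81.4% of exonic bases with another annotated gene (ENSG00000284946 and ENSG00000285920) on the same strand, but neither partner has a row in the count table. CENPA shares 7.1% of its exonic bases with SLC35F6 and NUSAP1 5.4% with OIP5-AS1, both on the same strand and both counted. On the opposite strand FOXM1 shares 15.9% with ITFG2, CCNA2 9.2% with EXOSC9 and CDC25C 8.8% with FAM53C. Values of genes with a counted partner are uncertain to the extent of reads in the shared bases. The study's methods give strand-specific counting, and how reads in shared bases were counted was not tested here.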

How the data were processed

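The authors extracted RNA from 501Mel cells, made stranded mRNA libraries with ERCC spike-ins and sequenced read pairs. Per the labels and the study's methods read pairs were aligned to hg19 (GRCh37) by STAR 2.4.0a, and featureCounts (Subread 1.5.0-p3) summed them by gene name. The deposited values are raw counts with no scaling, in 56638 gene rows and 96 rows of controls, of which 92 are ERCC. Replicates were not pooled, and depth was 8378655 to 25076925 gene counts per library. No molecular identifiers are named in the sources used here.

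Control rows were removed, filterByExpr by group kept 16080 genes, and edgeR 4.0.16 (R 4.3.3) fitted a robust quasi-likelihood model on TMM-scaled counts with 1 term per group to all 12 libraries, with Benjamini-Hochberg adjustment over all tested genes and a threshold of 0.05. Standard errors are the absolute log2 fold change over the square root of F. The biological coefficient of variation common to all genes was 0.0915, and chi-square values per degree of freedom between replicates, 4.62 to 22.6, exceeded sampling noise. The steps were tested on simulated data.

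The alternatives were DESeq2 1.42.0, RLE factors, scaling to the spike-ins, other filters on low counts, a replicate block, only the libraries compared and leaving out each library. The 55 genes, the roles, the other lists, the motifs and the alternatives were chosen with earlier results of these data known. Genes named with values are 34 key genes of these roles, in each comparison the 3 largest called rises and falls, members not called where they are 10 or fewer, and in other lists the largest called rise and fall and up to 3 genes against the others. Beyond this rule, NUF2, CDCA8, CCNB2, KIF14, TTK and CENPM were named, and the level patterns and promoter stretches picked, after values were seen. Symbols matched through older names were KNL1, SGO1, SGO2 and WAPL. Figures were drawn with matplotlib 3.10.9.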

Additional observations from a re-analysis of the deposited data

Results flagged for a closer look

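The effect of RSV on the 55 mitotic genes differed with and without Vem. The interaction of RSV and Vem, tested in the edgeR model, was above 0 and called for 55 of 55 genes, with a median of 1.59 on the log2 scale. RSV alone called 32 genes lower and 2 higher against vehicle, and RSV+Vem called 52 higher and 0 lower against Vem. Under spike-in scaling the interaction stayed above 0 for the 55 genes and 1 was called, where 8 of 16080 tested genes were called above 0. With 2 libraries per group, no group could be examined for a single library far from the others.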

How the results depend on the processing

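The count of genes lower with Vem was 55 under every alternative run. Of the 9 medians over the 55 genes, that of TCDD over vehicle changed sign, ranging from -0.51 to 0.05, and the others kept theirs, while single genes that turned under spike-in scaling are given in the report. Scaling to the spike-ins changed the counts most. Counts over the 16080 tested genes are given here in brackets. With RSV it called 3 lower and 0 higher (113 and 256), and with TCDD 0 lower and 0 higher (8 and 2). RSV+Vem over Vem had 5 higher (334), and RSV+Vem over RSV had 1 lower and 0 higher (461 and 20). RSV+TCDD over TCDD had 27 lower and 0 higher (1752 and 160), and RSV+TCDD over RSV had 49 lower (6926). The interaction of RSV and Vem had 1 above 0 (8). The 2 libraries of RSV+Vem and of RSV+TCDD differ most in spike-in share, and the cause was not tested. Without a filter on low counts TCDD called 4 lower and 0 higher, and the interaction of RSV and TCDD 1 below 0, as DESeq2 also did. With only the libraries compared, TCDD called 2 lower, RSV+Vem over RSV 0 higher, and RSV+TCDD over RSV 3 lower.

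Leaving out 1 library at a time gave 21 to 34 lower genes for RSV, 8 to 28 for RSV+Vem over RSV, 1 to 7 for RSV+TCDD over RSV, 0 to 1 for TCDD and 0 to 3 for RSV and TCDD as an interaction. The higher genes numbered 0 to 2 for RSV, 0 to 3 for RSV+TCDD over TCDD, 0 to 1 for RSV+Vem over RSV, 0 to 1 for TCDD, 49 to 52 for RSV+Vem over Vem and 54 to 55 for the interaction of RSV and Vem. The highest count of that TCDD interaction came without vehicle replicate 2. A lone remaining library was assumed to vary like the other groups.

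A replicate block was fitted because groups share the numbers 1 and 2. The replicate differences of the groups had correlations from -0.501 to 0.533 over 15 pairs of groups. Of these, 6 were above 0.1 and 5 below minus 0.1, so groups shared deviations but not in a common direction by number. A batch that crosses the numbers was not tested. The block gave 33 lower with RSV, 28 lower with RSV+Vem over RSV, 40 lower with RSV+TCDD over TCDD and 8 lower with RSV+TCDD over RSV, and moved no count by over 1.5 times. Depth limits the rarest genes most, and RSV+Vem replicate 2 is the shallowest library.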
